A study of Lactuca sativa with 9 samples.

Results

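This report describes 183 lettuce genes whose transcript level was higher in each step of a series of romaine genotypes ordered by shelf life, in leaves taken before harvest. The members were chosen by their measured levels in all 9 libraries, from 38910 gene models. A gene needed, in every genotype, 30 or more raw counts on average, and it needed a mean log2(CPM + 0.5) at least 0.8 higher in the intermediate than in the short shelf life genotype, a further 0.8 higher in the long shelf life genotype, and no overlap between long and short. CPM is the counts of a gene divided by all counts assigned to genes in that library, scaled to 1000000. Of the 18373 genes with enough counts, 1473 passed the first step, 1228 passed the second and 183 passed both, and the overlap rule removed no gene. Because every library and every contrast entered the choice, the members' levels are given below as a description, without a test.

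The long shelf life genotype (LSL) was the commercial cultivar ‘Okeechobee’, the intermediate one (ISL) the commercial cultivar ‘Manatee’, and the short one (SSL) the experimental breeding line 60184, all Lactuca sativa var. longifolia, and no transgene, mutation or treatment is described for any of them. All 3 genotypes were raised in pots in a growth chamber with 16 h of light at 22 °C, while the location label names Belle Glade. RNA came from leaves of mature plants, with 3 libraries a genotype that the study calls biological replicates. The methods give the leaf, the first fully expanded one, for LSL and SSL only. Each shelf life class is 1 genotype, so shelf life cannot be told apart from any other difference between the 3 genotypes.

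Some of the members are receptors, calcium proteins, kinases and jasmonate genes of the kind that act in defence signalling. In plant leaves, receptors at the cell surface and NBS-LRR receptors inside the cell detect microbes and damage, and calcium, kinase cascades and jasmonate carry the signal onwards. Jasmonate is made from linolenic acid of chloroplast membranes, becomes active when joined to isoleucine, and acts by removing JAZ (TIFY) repressors, whose genes it also switches on. NAC and WRKY transcription factors are known from Arabidopsis thaliana as regulators of both defence and leaf ageing.

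The study designed qPCR primers for 3 of the members, a NAC factor, a leucine-rich repeat (LRR) receptor-like protein and a WRKY factor. The pairs are shown, 5′ to 3′, because they tie these members to the transcripts that were also measured outside the libraries. The qPCR itself was not analysed here.
NAC83 (Lsat_1_v5_gn_3_31741), forward: gtgttctaccgaggcaaag
NAC83 (Lsat_1_v5_gn_3_31741), reverse: ctcaactctcacatcgttctc
LRR protein (Lsat_1_v5_gn_6_42241), forward: agtgtcctggagatgaagaa
LRR protein (Lsat_1_v5_gn_6_42241), reverse: cggcggttgagaagtaaag
WRKY domain protein (Lsat_1_v5_gn_9_39381), forward: gccaagcgacaggataaa
WRKY domain protein (Lsat_1_v5_gn_9_39381), reverse: gcaagagcccaagattaaga

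Counts assigned to genes totalled 24108451 to 30219938 per LSL library, 29927056 to 32299035 per ISL library and 30373633 to 32840811 per SSL library. ISL replicate 2 stood apart from the other ISL libraries. On the first principal component of the genes outside the set, which held 46.6% of the variance, it lay at 51.7, against -3.8 and -0.7 for ISL replicates 1 and 3, 24.5 to 59.3 for LSL and -60.1 to -49.1 for SSL. Light harvesting genes, markers of leaf mesophyll and chloroplast content, summed to 3988 to 8257 CPM in LSL, 10866, 4412 and 9438 CPM in ISL replicates 1 to 3, and 18781 to 40107 CPM in SSL. Reads outside genes, as a percentage of all counted reads, were highest in LSL replicates 1 and 3, at 11.0 and 10.1%, against 5.0 to 7.3% in the other libraries. The part of leaf make-up, of library differences or of ISL replicate 2 in the members' levels was not tested, and in bulk leaf a change in cell numbers and a change in RNA per cell cannot be told apart.

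In the median member LSL exceeded SSL by 2.64 on the log2(CPM + 0.5) scale (range 1.62 to 5.50), and the ratio of mean CPM between LSL and SSL ranged from 3.29 to 56.1. The first step, ISL over SSL, had a median of 1.37 (0.81 to 3.39) and the second, LSL over ISL, a median of 1.17 (0.80 to 3.90). The first step was the larger in 112 members and the second in 71. Only 24 members had both steps of at least 1.5. Mean levels in LSL ran from 4.55 to 2463 CPM with a median of 92.5 CPM. Median SDs over the 3 libraries were 0.29 in LSL, 0.62 in ISL and 0.23 in SSL on the log2 scale.

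**Figure D1:**
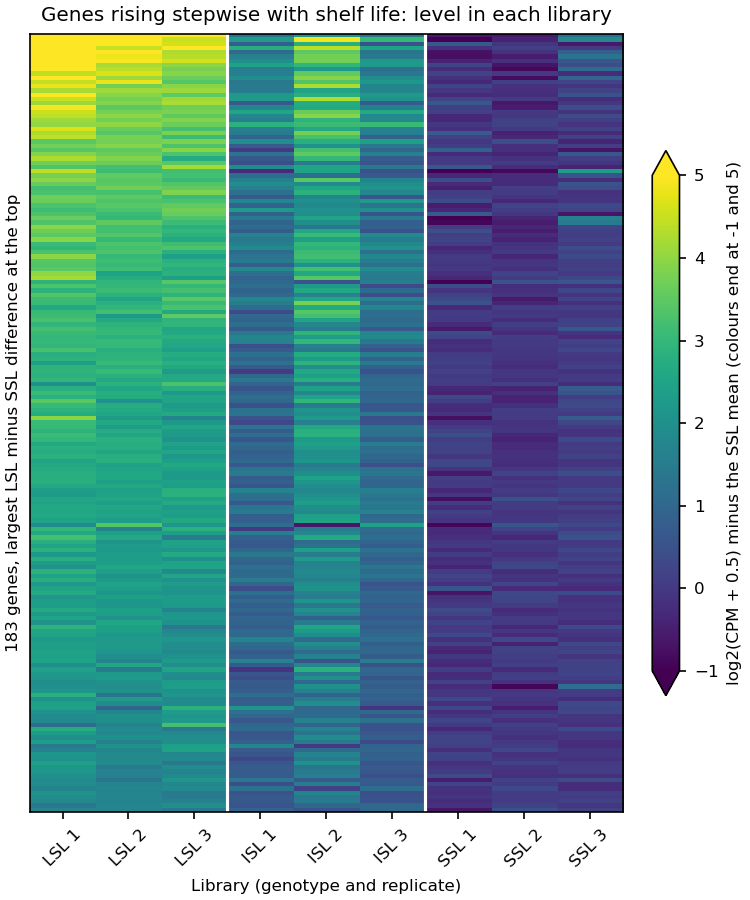
Level of each of the 183 members (rows, largest LSL minus SSL difference at the top) in the 9 libraries (columns), as log2(CPM + 0.5) minus the SSL mean, with colours held at -1 and 5. The LSL columns are brightest and the SSL columns darkest, and among the ISL columns replicate 2 is the brightest in 166 of 183 rows.

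The libraries of the 3 genotypes did not overlap at all in 116 members. In 164 members every ISL library was above every SSL library, and in 128 every LSL library was above every ISL library, so most of the overlap lay between LSL and ISL. That overlap came mainly from 1 library. ISL replicate 2 was above the lowest LSL library in 52 members, against 3 for ISL replicate 1 and 1 for ISL replicate 3. With ISL replicate 2 left out, 165 of the 183 members had no overlap between any genotypes. The rule asked for both mean steps and for LSL above SSL, so much of this separation came with the choice. Counts of separate ranges, here and below, were not made over all genes with enough counts and are a description only.

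ISL replicate 2 was the highest ISL library in 166 of 183 members (90.7%), whereas it was the highest in 21.5% of all 18373 genes with enough counts. In the median member it was 0.99 above the mean of the other ISL libraries on the log2 scale. Placing each ISL library between the SSL mean (0) and the LSL mean (1), the median member lay at 0.38 in replicate 1, 0.78 in replicate 2 and 0.42 in replicate 3. Without replicate 2 the first step kept its direction in all 183 members but reached 0.8 in 130 of them, while the second step reached 0.8 in 176. The whole rule, applied without replicate 2, was passed by 203 genes, and 123 of the 183 members were among them. Its median steps over the 183 members were then 1.01 for ISL over SSL and 1.55 for LSL over ISL. With ISL replicate 2 alone as the ISL genotype 98 genes passed, 60 of them members, against 210 genes with replicate 1 alone and 206 with replicate 3 alone. This last comparison was chosen after the data were seen.

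**Figure D2:**
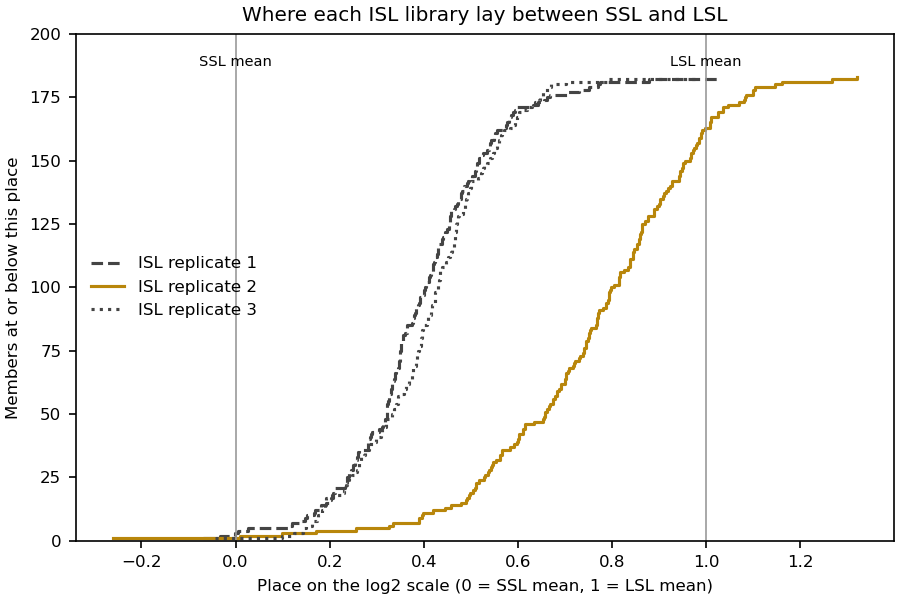
Number of members (vertical axis) at or below each place between the SSL mean (0) and the LSL mean (1) on the log2 scale (horizontal axis), for the 3 ISL libraries. The curves of replicates 1 and 3 nearly coincide, with medians of 0.38 and 0.42, and that of replicate 2 is shifted towards LSL, with a median of 0.78.

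**Figure D3:**
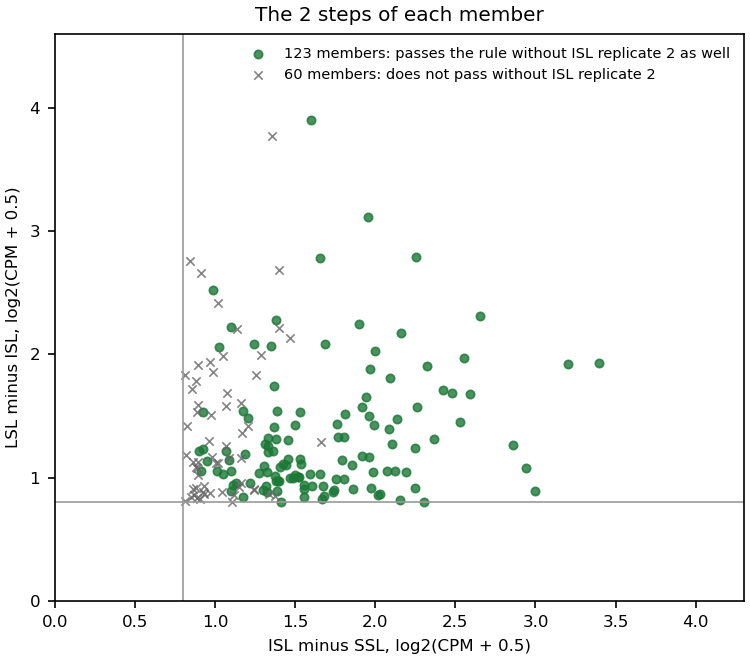
The 2 steps of each member, ISL minus SSL (horizontal) and LSL minus ISL (vertical), both in log2(CPM + 0.5), with lines at the threshold of 0.8. Circles are the 123 members that also pass without ISL replicate 2, and crosses, which gather at small first steps, the 60 that do not.

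The same rule was applied with the genotypes in each other order. Its exact reverse, lowest in LSL and highest in SSL, was passed by 101 genes. ISL replicate 2 was the lowest ISL library in 89 of these, and in 63.2% of all genes with enough counts. Orders with LSL in the middle took 73 genes, 45 of them highest in ISL and 28 highest in SSL. Orders with SSL in the middle took 52, with 21 highest in LSL and 31 highest in ISL. The rising order therefore held the most genes of the 6 orders, both over all libraries and without ISL replicate 2 (203 genes, against 14 to 105 in the others). No test was made of these counts.

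The 3 members nearest to the threshold were a ribosomal protein L10 gene (Lsat_1_v5_gn_8_98880) with a second step of 0.802, choline kinase 1 (Lsat_1_v5_gn_6_101381) with 0.804 and ubiquitin-specific protease 21 (Lsat_1_v5_gn_3_17880) with 0.804. Choline kinase 1 had 347, 315 and 212 CPM in LSL, 127, 289 and 119 CPM in ISL and 63.6, 58.8 and 60.6 CPM in SSL, and the protease had 90.1, 64.2 and 46.04 CPM in LSL, 26.3, 71.9 and 25.9 CPM in ISL and 14.7, 18.9 and 16.99 CPM in SSL. In both, ISL replicate 2 lay within the LSL range. Just outside were a calcineurin-like phosphoesterase (Lsat_1_v5_gn_4_124081), with a first step of 0.799, a gene annotated as MYB116 (Lsat_1_v5_gn_8_40841) with a second step of 0.796, and an oxygenase (Lsat_1_v5_gn_3_120981) with a second step of 0.794. The phosphoesterase had 25.1, 30.3 and 33.9 CPM in LSL, 16.04, 13.8 and 18 CPM in ISL and 6.15, 10.1 and 11.2 CPM in SSL. MYB116 had 5.39, 2.29 and 7.13 CPM in LSL, 2.21, 2.45 and 2.52 CPM in ISL and 0.274, 0.856 and 1.79 CPM in SSL, and the oxygenase had 20.8, 18.003 and 21.98 CPM in LSL, 10.1, 14.4 and 10.3 CPM in ISL and 2.22, 2.31 and 2.78 CPM in SSL. The phosphoesterase and the oxygenase had 3 separate genotype ranges, as many members did.

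A description was found for 164 of the 183 members in the study's supplementary tables, and 110 of these fell in at least 1 of 25 family lists, which were built from words in the descriptions. Cell-surface receptors were the most frequent, with 16 members, followed by ubiquitin ligases and F-box proteins with 13, transporters with 12, calcium and calmodulin signalling with 11, and lipid metabolism with 9. The jasmonate list and the NBS-LRR list held 7 each. Jasmonate genes made up 4.3% of the described members and 0.7% of the described genes with enough counts, calcium genes 6.7 and 2.6%, cell-surface receptors 9.8 and 4.4%, and NBS-LRR genes 4.3 and 2.1%. Transporters (7.3 and 5.2%), chaperones (1.8 and 1.8%) and cell wall enzymes (2.4 and 2.4%) were closer to their share. No light harvesting, photosystem, guard cell or senescence-named gene was a member, and the vascular and cell division word lists had 1 each. These were a protein kinase with a phloem protein 2 domain (Lsat_1_v5_gn_5_32061) and a coatomer subunit (Lsat_1_v5_gn_1_34921). Both entered by words in their descriptions, and neither was shown to mark its tissue. Most described genes had been selected by the study on these libraries, so these shares are tallies and not evidence of enrichment.

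The 7 members of the jasmonate list were a phospholipase, allene oxide cyclase, a JAR1-type gene, an oxygenase and 3 TIFY genes. The desaturase, the OPC-8:0 ligase, CYP94C1 and MTB1, described beside them, were outside that list and are given for their known roles. At the start of the pathway, a plastid omega-3 desaturase annotated as FAD8 (Lsat_1_v5_gn_8_11680), an enzyme type that makes linolenic acid, had 2068, 1846 and 1459 CPM in LSL, 499.6, 1710.1 and 642 CPM in ISL and 324, 281 and 311 CPM in SSL. A chloroplast phospholipase A1 (Lsat_1_v5_gn_6_94020), of a family that frees fatty acids from membranes, had 47.8, 50.9 and 66.7 CPM in LSL, 29.97, 32.6 and 27.7 CPM in ISL and 7.09, 9.25 and 11.2 CPM in SSL. ISL replicate 2 reached the LSL range for the desaturase, while the lipase had 3 separate ranges. Allene oxide cyclase (Lsat_1_v5_gn_4_153121), which forms the ring of the jasmonate precursor, had 1869, 1208 and 1168 CPM in LSL, 529.6, 1364 and 631 CPM in ISL and 218, 258 and 321 CPM in SSL. OPC-8:0 CoA ligase1 (Lsat_1_v5_gn_8_28060), which activates the precursor for shortening in the peroxisome, averaged 611 CPM in LSL, 278 CPM in ISL and 51.7 CPM in SSL. The ligase had 120, 562 and 151 CPM in the ISL libraries, so ISL replicate 2 was above LSL replicate 3, at 485 CPM. For the cyclase ISL replicate 2 was above 2 of the 3 LSL libraries, whereas ISL replicates 1 and 3 stayed below all of them.

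The JAR1-type gene (Lsat_1_v5_gn_4_34281), whose product joins jasmonate to isoleucine, took the larger part of its difference in the second step. It had 283, 279 and 244 CPM in LSL, 29.4, 62.7 and 32.6 CPM in ISL and 21.8, 22.7 and 20.4 CPM in SSL, with steps of 0.84 and 2.76, and without ISL replicate 2 the first step was 0.51, under the threshold. An enzyme that removes active jasmonate was a member too. CYP94C1 (Lsat_1_v5_gn_6_40941), which oxidises the isoleucine conjugate in Arabidopsis, had 81.5, 32.4 and 48.6 CPM in LSL, 9.26, 29.8 and 7.71 CPM in ISL and 0.822, 1.12 and 0.957 CPM in SSL. The gene described as jasmonate-induced oxygenase 2 (Lsat_1_v5_gn_2_124860) had 209, 98.5 and 76.2 CPM in LSL, 24.5, 49.8 and 25.1 CPM in ISL and 6.64, 7.77 and 8.65 CPM in SSL. In neither of these did the libraries of any 2 genotypes overlap.

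JAZ repressors were represented by TIFY 10B, TIFY 9 and TIFY 10A. TIFY 10B (Lsat_1_v5_gn_4_91521) had 459, 277 and 176 CPM in LSL, 37.5, 59.4 and 29.96 CPM in ISL and 10.5, 6.62 and 27.9 CPM in SSL, with the larger step between LSL and ISL (2.78, against 1.65 for ISL over SSL). TIFY 9, the JAZ10 type (Lsat_1_v5_gn_3_31461), averaged 661 CPM in LSL, 348 CPM in ISL and 68.8 CPM in SSL and took its larger step first (2.19, against 1.05). Its ISL libraries had 215, 581 and 247 CPM, so ISL replicate 2 was above LSL replicate 3, at 487 CPM. TIFY 10A, a JAZ1 type (Lsat_1_v5_gn_5_139561), averaged 555 CPM in LSL, 165 CPM in ISL and 86.9 CPM in SSL, with steps of 0.88 and 1.78. It did not pass without ISL replicate 2. The bHLH factor described as MTB1 (Lsat_1_v5_gn_4_33781), of a type that restrains jasmonate responses in tomato, had 772, 731 and 501 CPM in LSL, 203, 443 and 222 CPM in ISL and 106, 98.8 and 123 CPM in SSL. Another gene described as MTB1 (Lsat_1_v5_gn_3_140101) was no member. On the log2 scale it rose by 2.54 in LSL over SSL (edgeR adjusted p = 0.000123). In ISL over SSL it was not called (0.52, edgeR adjusted p = 0.22). A TOPLESS-related corepressor, the partner through which JAZ proteins silence genes, was 1 description of Lsat_1_v5_gn_5_63761. The lettuce description of this gene was a WD40 repeat protein, but another source describes it as a receptor-like kinase. The gene was counted among the cell-surface receptors. It had 124, 93.1 and 66.3 CPM in LSL, 19.98, 87.9 and 20.6 CPM in ISL and 4.202, 5.103 and 7.07 CPM in SSL.

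**Figure D4:**
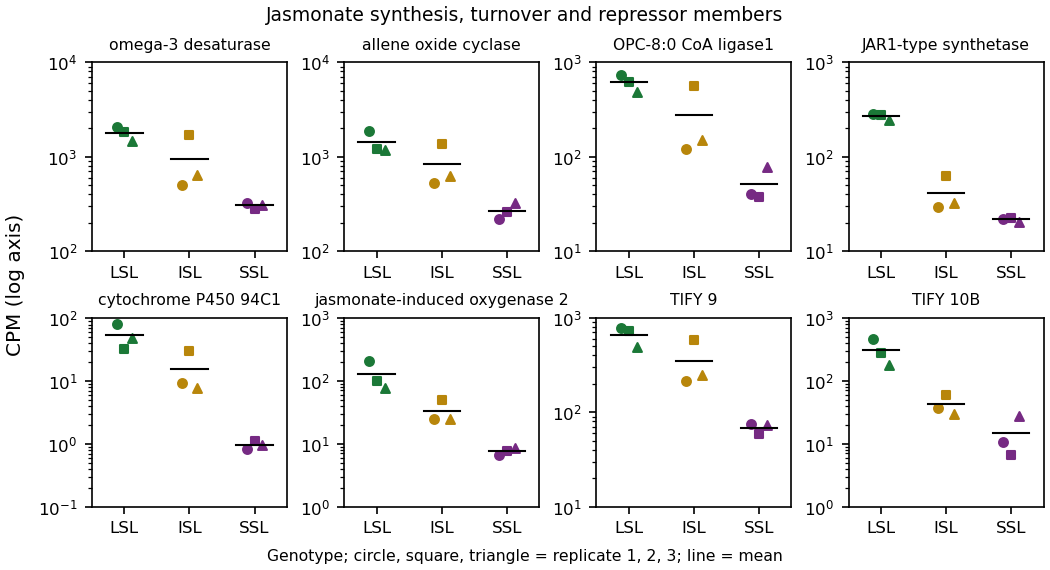
CPM of 8 members of jasmonate synthesis, turnover and repression, 5 of them from the jasmonate list, in LSL, ISL and SSL (log axis; circle, square and triangle are replicates 1, 2 and 3, the line the mean). ISL replicate 2 is the highest ISL point in all 8, and no SSL point reaches an LSL point.

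Among listed jasmonate genes that were not members, 19 were tested with edgeR. In LSL against SSL 15 were higher, 1 lower and 3 not called at an adjusted p under 0.05, with a median log2 fold change of 1.88, beside 16.2% higher and 15.3% lower of all genes tested and 42.0 and 33.4% of the described genes outside the set. In ISL against SSL 13 were higher and 1 lower, or 68.4 and 5.3%. These stood beside 10.3 and 8.6% of all genes and 35.8 and 28.5% of the described genes. Without ISL replicate 2, 12 of 18 were higher, or 66.7%, beside 10.4% of all genes and 35.5% of the described genes. In LSL against ISL only 4 were higher and 1 lower, or 21.1 and 5.3%. These stood beside 4.54 and 3.74% of all genes and 11.1 and 10.6% of the described genes. Without ISL replicate 2, 3 of 19 were higher and 1 lower in LSL against ISL, or 15.8 and 5.3%. That was beside 6.0 and 4.0% of all genes and 17.3 and 12.6% of the described genes, so the share higher was near that of the described genes. Peroxisomal 3-ketoacyl-CoA thiolase (Lsat_1_v5_gn_5_179700), of the chain-shortening step, rose in LSL over SSL by 3.16 on the log2 scale (edgeR adjusted p = 8.4e-05). It was no member, with 428, 416 and 366 CPM in LSL, 36.7, 119 and 37.5 CPM in ISL and 43.8, 38.1 and 51.5 CPM in SSL, so that ISL replicates 1 and 3 were below every SSL library. A further TIFY 10A gene (Lsat_1_v5_gn_1_37841) rose by 3.60 (edgeR adjusted p = 0.00026). The 3 potassium channel genes of this list entered it through words in their descriptions and are not jasmonate enzymes. Removing the members from a list leaves out genes that were higher by choice, so these counts are lower than for the whole family. Over all family lists outside the set, 1064 genes were called in ISL against SSL, but 420 to 488 when SSL replicate 1, 2 or 3 was left out. In LSL against ISL 426 were called, but 156 to 274 when ISL replicate 1 or 3 or any LSL library was left out, and 564 without ISL replicate 2. Counts that involve ISL, here and below, depend on which libraries enter.

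Of the 16 cell-surface receptors, 11 had no overlap between any genotypes and 10 passed without ISL replicate 2. Over all 183 members these counts were 116 and 123, and the rule itself favoured separate genotypes. The lectin receptor kinase S.4 (Lsat_1_v5_gn_8_14940) had 115, 50.4 and 41.6 CPM in LSL, 14.8, 20.7 and 12.2 CPM in ISL and 2.71, 1.22 and 3.18 CPM in SSL. A receptor-like protein (Lsat_1_v5_gn_9_35080) had 74.4, 64.6 and 83.5 CPM in LSL, 6.55, 28.5 and 7.02 CPM in ISL and 6.36, 2.37 and 3.77 CPM in SSL, and its ISL replicates 1 and 3 were close to SSL replicate 1. The LRR protein with qPCR primers (Lsat_1_v5_gn_6_42241), similar to tomato EIX2, which senses a fungal xylanase, had 68.4, 66.1 and 52.7 CPM in LSL, 29.7, 35.4 and 34.9 CPM in ISL and 3.56, 4.25 and 3.43 CPM in SSL. Its 3 ISL libraries lay close together and apart from both other genotypes, with a first step of 2.99 and a second of 0.89, or 2.95 and 0.93 without ISL replicate 2. The 2 members described as FERONIA, a receptor for cell wall peptides in Arabidopsis, averaged 27.9 CPM in LSL, 9.03 CPM in ISL and 2.11 CPM in SSL for Lsat_1_v5_gn_2_57021 and 22.97 CPM in LSL, 9.09 CPM in ISL and 1.75 CPM in SSL for Lsat_1_v5_gn_0_16380. Both belonged to the 17 members in which ISL replicate 2 was not the highest ISL library.

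The 7 NBS-LRR members were led by 2 of the TIR class, both similar to RUN1, a mildew resistance gene of grape. Lsat_1_v5_gn_1_102041 had 103, 73.6 and 50.9 CPM in LSL, 3.11, 13.9 and 2.48 CPM in ISL and 2.89, 1.45 and 0.896 CPM in SSL, so that ISL replicates 1 and 3 lay near SSL and the first step was 0.65 without ISL replicate 2. Lsat_1_v5_gn_1_93741 had 124, 116 and 114 CPM in LSL, 18.1, 37.5 and 21.8 CPM in ISL and 6.03, 5.399 and 7.41 CPM in SSL, with 3 ranges that did not touch. An RPW8-type gene of the CC class (Lsat_1_v5_gn_4_168440) had 301, 337 and 234 CPM in LSL, 48.7, 400.1 and 82.4 CPM in ISL and 38.7, 36.1 and 35.4 CPM in SSL. Here ISL replicate 2 was above every LSL library, and the gene did not pass without it. Of 98 listed NBS-LRR genes outside the set, 73 rose and 18 fell in LSL against SSL, and of 94 in LSL against ISL 26 rose and 15 fell, or 39 and 10 of 89 without ISL replicate 2. These were 74.5 and 18.4% in LSL against SSL, beside 42.0 and 33.4% of the described genes and 16.2 and 15.3% of all genes tested. In LSL against ISL they were 27.7 and 16.0%, beside 11.1 and 10.6% of the described and 4.54 and 3.74% of all genes. Without ISL replicate 2 they were 43.8 and 11.2%, beside 17.3 and 12.6% of the described genes and 6.0 and 4.0% of all genes tested. Among them the NB-ARC gene Lsat_1_v5_gn_8_121540 fell by 7.78 on the log2 scale (edgeR adjusted p = 3.19e-05), with 0.199, 0.382 and 0.622 CPM in LSL, 9.39, 6.01 and 8.46 CPM in ISL and 74.5, 89.8 and 91.7 CPM in SSL, and the TIR-NBS-LRR gene Lsat_1_v5_gn_1_80200 rose by 2.33 (edgeR adjusted p = 3.77e-05). The authors counted only uniquely mapped reads, so near-identical receptor genes may be undercounted.

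Calcium genes made up 11 members, and in 10 of them no 2 genotypes overlapped. Over all members this held for 116 of 183, and the rule itself favoured such separation. The sodium/calcium exchanger NCL (Lsat_1_v5_gn_5_129040), which moves calcium across membranes, had 359.8, 432 and 252 CPM in LSL, 49.9, 196 and 42.6 CPM in ISL and 19.3, 16.5 and 13.8 CPM in SSL. The glutamate receptor-like channel 1.3 (Lsat_1_v5_gn_9_16761) had 38.5, 49.7 and 18.6 CPM in LSL, 4.21, 17.8 and 7.71 CPM in ISL and 0.913, 1.45 and 1.54 CPM in SSL. Cyclic nucleotide-gated channel 1 (Lsat_1_v5_gn_4_33240) had 18.2, 22.2 and 23.2 CPM in LSL, 5.95, 10.96 and 8.43 CPM in ISL and 1.13, 1.78 and 0.803 CPM in SSL. In these 3 the ISL libraries lay between the other genotypes, with replicate 2 nearest to LSL. An EF-hand calcium-binding protein of the CML25 type (Lsat_1_v5_gn_3_53980) was among the most abundant members, with 1718, 1811 and 1555 CPM in LSL, 592, 1135 and 646 CPM in ISL and 412, 317 and 343 CPM in SSL. A calcium pump of the ACA11 type (Lsat_1_v5_gn_9_30940) averaged 465 CPM in LSL, 226 CPM in ISL and 52.1 CPM in SSL. Its ISL libraries had 113, 445 and 121 CPM, so ISL replicate 2 was above LSL replicate 3, at 365 CPM. Among the members were also 2 calmodulin-binding proteins of the CBP60A type. Lsat_1_v5_gn_1_26140 averaged 141 CPM in LSL, 54.4 CPM in ISL and 12.1 CPM in SSL. Lsat_1_v5_gn_4_73301 averaged 153 CPM in LSL, 71.5 CPM in ISL and 25.8 CPM in SSL. Outside the set, 53 of 84 listed calcium genes rose and 9 fell in LSL against SSL, and 52 of 82 rose and 5 fell in ISL against SSL, while in LSL against ISL 12 rose and 11 fell of 83, or 20 and 11 of 82 without ISL replicate 2. Against SSL these were 63.1 and 10.7% for LSL, beside 42.0 and 33.4% of the described genes, and 63.4 and 6.1% for ISL, beside 35.8 and 28.5%. For LSL against ISL the 14.5 and 13.3% were near the 11.1 and 10.6% of the described genes. The shares of all genes tested were 4.54 and 3.74%. Without ISL replicate 2 the calcium shares were 24.4 and 13.4%, beside 17.3 and 12.6% of the described and 6.0 and 4.0% of all genes. Against SSL the shares of all genes tested were 16.2 and 15.3% for LSL and 10.3 and 8.6% for ISL.

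Kinase members included a pair described as MAPKKK16 or MAPKKK18, which start a MAP kinase cascade. Lsat_1_v5_gn_7_91420 had 100.1, 37.2 and 42.02 CPM in LSL, 10.9, 20.4 and 9.57 CPM in ISL and 3.17, 1.78 and 3.98 CPM in SSL, and Lsat_1_v5_gn_7_98441 had 27.5, 9.38 and 12.4 CPM in LSL, 3.54, 10.5 and 4.57 CPM in ISL and 1.07, 1.55 and 1.27 CPM in SSL, where ISL replicate 2 exceeded LSL replicate 2. The receptor-like cytoplasmic kinase PBL12 (Lsat_1_v5_gn_4_94081) had 308, 252 and 239.8 CPM in LSL, 83.002, 100.3 and 115 CPM in ISL and 32.3, 19.7 and 22.7 CPM in SSL, and the 3 genotypes stayed apart with ISL replicate 3 the highest of its genotype. CBL-interacting protein kinase 9 (Lsat_1_v5_gn_4_31741), a kinase switched on by calcium sensors, had 381, 472 and 360.0 CPM in LSL, 139.7, 304 and 121 CPM in ISL and 80.8, 58.7 and 62.9 CPM in SSL. CTR1 (Lsat_1_v5_gn_1_50421), which holds back ethylene signalling in Arabidopsis, had 98.5, 90.4 and 80.2 CPM in LSL, 30.6, 78.1 and 26.5 CPM in ISL and 16.5, 10.1 and 14.7 CPM in SSL. Among the protein phosphatases 2C, which counter such kinases and made up 0.6% of the described genes with enough counts, no gene was a member. In LSL against SSL 13 of 22 rose and 2 fell, or 59.1 and 9.1%. These stood beside 42.0 and 33.4% of the described genes and 16.2 and 15.3% of all genes tested.

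The ethylene list held 3 members, 1.8% of the described members, beside 1.4% of the described genes with enough counts. Ethylene receptor 2 (Lsat_1_v5_gn_5_72101) had 166, 132 and 192 CPM in LSL, 90.5, 80.4 and 81.8 CPM in ISL and 33.01, 36.7 and 47.3 CPM in SSL. All 3 ISL libraries lay between 80.4 and 90.5 CPM, and its steps without ISL replicate 2 were 1.15 and 0.91. A factor of the ERF025 type (Lsat_1_v5_gn_2_130781) had 53.97, 76.6 and 68.98 CPM in LSL, 17.7, 34.1 and 24.96 CPM in ISL and 3.71, 5.79 and 7.44 CPM in SSL. ERF1A (Lsat_1_v5_gn_6_92860) had 8.67, 4.901 and 7.22 CPM in LSL, 4.68, 1.89 and 4.15 CPM in ISL and 0.913, 1.15 and 1.36 CPM in SSL, and here ISL replicate 2 was the lowest ISL library. Another, more abundant gene described as ERF1A (Lsat_1_v5_gn_6_92840) was no member. It had 239, 287 and 210 CPM in LSL, 171, 159 and 194 CPM in ISL and 43.9, 41.2 and 45.6 CPM in SSL. Of 50 listed ethylene genes outside the set, 14 rose and 24 fell in LSL against SSL, with a median log2 fold change of -0.66. These were 28 and 48%, beside 42.0 and 33.4% of the described genes and 16.2 and 15.3% of all genes tested. In ISL against SSL 16 of 47 rose and 10 fell, or 34.0 and 21.3%. These stood beside 35.8 and 28.5% of the described genes and 10.3 and 8.6% of all genes tested. The list holds ethylene response factors and oxygenases of uncertain role as well as receptors.

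Of the transcription factors, NAC83 (Lsat_1_v5_gn_3_31741), known in Arabidopsis from vessel formation and leaf ageing, had 260.2, 197 and 217 CPM in LSL, 43.7, 112 and 52.3 CPM in ISL and 11.5, 16.4 and 15.97 CPM in SSL. Its 2 steps were 2.10 and 1.81, and it passed the rule whichever library was left out. WRKY70 (Lsat_1_v5_gn_9_39381), which delays leaf senescence in Arabidopsis, had 98.9, 113 and 149 CPM in LSL, 46.5, 81.5 and 53.7 CPM in ISL and 19.3, 19.8 and 21.4 CPM in SSL, with LSL, ISL and SSL libraries apart. WRKY75 (Lsat_1_v5_gn_8_147781), which promotes senescence there, had 15.3, 17.3 and 12.98 CPM in LSL, 2.47, 5.697 and 2.19 CPM in ISL and 0.335, 0.56 and 3.74 CPM in SSL, and SSL replicate 3 lay above ISL replicates 1 and 3. WRKY57 (Lsat_1_v5_gn_4_12300), tied to jasmonate responses, had 48.8, 43.8 and 36.05 CPM in LSL, 19.1, 28.8 and 18.6 CPM in ISL and 7.28, 10.4 and 9.73 CPM in SSL. Outside the set 10 of 19 listed WRKY genes rose and 8 fell in LSL against SSL, while in LSL against ISL 1 rose and 7 fell, or 4 and 7 without ISL replicate 2. The 52.6 and 42.1% in LSL against SSL stood beside 42.0 and 33.4% of the described genes and 16.2 and 15.3% of all genes tested. The 5.3 and 36.8% in LSL against ISL stood beside 11.1 and 10.6%, and the 21.1 and 36.8% without ISL replicate 2 beside 17.3 and 12.6%. For all genes tested these shares were 4.54 and 3.74%, and 6.0 and 4.0% without ISL replicate 2. Another gene described as NAC83 (Lsat_1_v5_gn_4_1821) fell by 2.07 in LSL against SSL (edgeR adjusted p = 0.0011), with 39.5, 27.6 and 30.2 CPM in LSL, 83.4, 48.6 and 67.1 CPM in ISL and 167, 110.2 and 120.2 CPM in SSL.

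The largest difference in the set belonged to a MYB gene (Lsat_1_v5_gn_3_12421) described as MYB111, a flavonol regulator of Arabidopsis, by one source and as MYB8 by another. It had 211, 249 and 137 CPM in LSL, 9.86, 18.9 and 10.2 CPM in ISL and 2.35, 2.403 and 8.93 CPM in SSL, and most of its LSL minus SSL difference of 5.50 lay in the second step (3.90). MYB17 (Lsat_1_v5_gn_2_131920) had 72.998, 87.2 and 95.5 CPM in LSL, 33.5, 69.1 and 38.5 CPM in ISL and 6.97, 8.36 and 12.4 CPM in SSL, with the larger step first. A Dof zinc finger gene (Lsat_1_v5_gn_1_27080) had 60.3, 27.6 and 31.9 CPM in LSL, 5.38, 40.5 and 6.43 CPM in ISL and 2.01, 1.42 and 1.51 CPM in SSL, and ISL replicate 2 fell within the LSL range. A bHLH gene (Lsat_1_v5_gn_3_37760) had 29.5, 14.9 and 30.7 CPM in LSL, 4.75, 38.7 and 10.4 CPM in ISL and 5.42, 4.12 and 5.62 CPM in SSL. There ISL replicate 2 was the highest of all 9 libraries, and the gene did not pass without it.

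**Figure D5:**
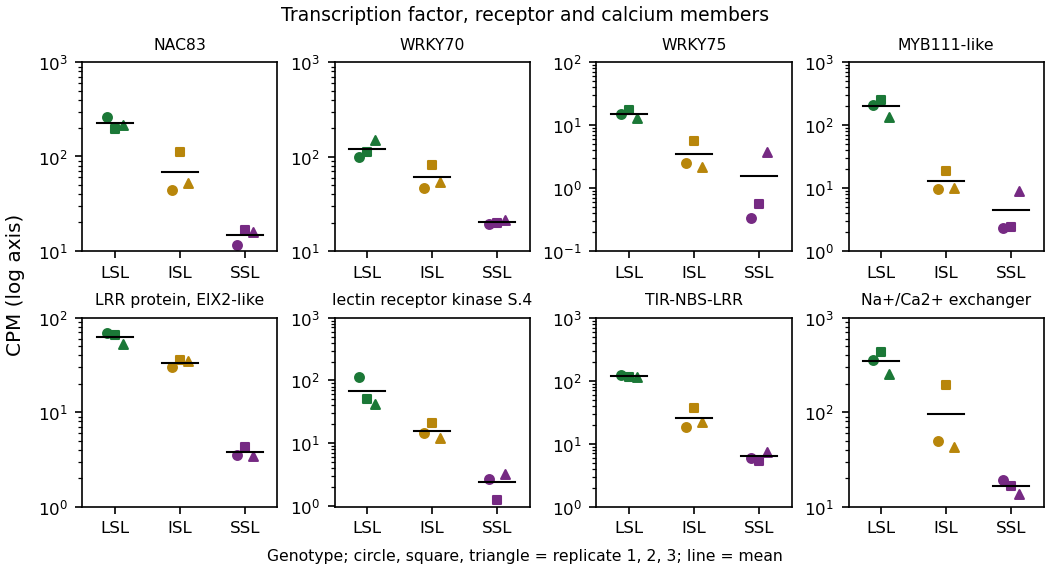
CPM of 8 transcription factor, receptor and calcium members in LSL, ISL and SSL (log axis; circle, square and triangle are replicates 1, 2 and 3, the line the mean). NAC83, WRKY70 and the EIX2-like LRR protein show 3 separate ranges, and for WRKY75 SSL replicate 3 overlaps the ISL points.

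Several members with large steps lay outside signalling. A haloacid dehalogenase-like hydrolase (Lsat_1_v5_gn_9_77320) had the largest smaller step of all described members, with 710.3, 531 and 419 CPM in LSL, 70.004, 229.7 and 80.03 CPM in ISL and 12.7, 14.6 and 25.7 CPM in SSL. Polyamine oxidase 2 (Lsat_1_v5_gn_3_36200), which breaks down polyamines and releases hydrogen peroxide, had 679, 411 and 225 CPM in LSL, 23.96, 132 and 29.2 CPM in ISL and 6.64, 10.4 and 20.8 CPM in SSL. Alcohol dehydrogenase 1 (Lsat_1_v5_gn_4_90821) had 124, 59.02 and 41.6 CPM in LSL, 5.78, 26.9 and 5.03 CPM in ISL and 0.731, 0.922 and 4.54 CPM in SSL, and SSL replicate 3 was close to ISL replicates 1 and 3. An uncharacterized protein of the UPF0114 family (Lsat_1_v5_gn_4_123001) had 171, 224 and 82.1 CPM in LSL, 17.6, 109 and 28.7 CPM in ISL and 0.853, 2.24 and 12.9 CPM in SSL, from 0.853 to 12.9 CPM within SSL. All 4 had ISL replicate 2 as their highest ISL library and passed without it.

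Redox members were of several kinds. The gene Lsat_1_v5_gn_8_110380, thioredoxin H9 by its lettuce description and a RETICULATA-related protein by another, had 83.5, 78.96 and 83.8 CPM in LSL, 23.8, 37.03 and 24.7 CPM in ISL and 8.53, 11.3 and 11.6 CPM in SSL. A thioredoxin-type gene (Lsat_1_v5_gn_9_65460) had 191, 152 and 154 CPM in LSL, 43.1, 90.5 and 24.9 CPM in ISL and 24.97, 16.3 and 16.8 CPM in SSL, and a peroxidase (Lsat_1_v5_gn_4_26041) had 8.93, 2.88 and 11.9 CPM in LSL, 7.08, 3.03 and 1.14 CPM in ISL and 1.61, 0.724 and 1.57 CPM in SSL. The peroxidase ranges of ISL overlapped those of both LSL and SSL. A gene of the respiratory burst oxidase F type (Lsat_1_v5_gn_3_11620), which makes superoxide, averaged 39.2 CPM in LSL, 16.9 CPM in ISL and 7.66 CPM in SSL.

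The terpenoid list held 4 members and the phenylpropanoid list 3, counting the jasmonate-induced oxygenase. The monoterpene synthase gene (Lsat_1_v5_gn_8_143701), described as linalool or terpineol synthase, had 388, 333 and 264 CPM in LSL, 61.98, 63.8 and 44.8 CPM in ISL and 22.4, 23.7 and 41.5 CPM in SSL. ISL and SSL ranges stayed apart for it, yet the second step (2.52) was far larger than the first (0.99). The small subunit of geranylgeranyl diphosphate synthase (Lsat_1_v5_gn_9_93760), which supplies terpenoid precursors, had 70.3, 51.1 and 43.3 CPM in LSL, 30.5, 31.7 and 20.7 CPM in ISL and 10.7, 9.35 and 10.3 CPM in SSL. Dirigent protein 22 (Lsat_1_v5_gn_8_125180), of a family guiding lignan coupling, had 22.9, 26.6 and 28.9 CPM in LSL, 5.55, 18.3 and 6.27 CPM in ISL and 2.53, 2.27 and 3.31 CPM in SSL. Caffeoylshikimate esterase (Lsat_1_v5_gn_8_41240), an enzyme of lignin synthesis, had 158, 113 and 85.6 CPM in LSL, 26.6, 44.1 and 23.6 CPM in ISL and 13.6, 15.4 and 19.5 CPM in SSL, and a glycosyltransferase of the UGT85 family (Lsat_1_v5_gn_1_89661) had 749, 673 and 407 CPM in LSL, 146, 459 and 160.1 CPM in ISL and 102, 70.6 and 121 CPM in SSL. Neither of these last genes passed without ISL replicate 2. The terpenoid list also took in, through its wording, an isoprenylated metal-binding protein (Lsat_1_v5_gn_8_124520), with 19.9, 7.79 and 18.5 CPM in LSL, 2.17, 7.12 and 5.33 CPM in ISL and 1.68, 2.57 and 2.29 CPM in SSL.

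The ubiquitin and F-box list, of genes that act mostly in protein turnover, held 13 members. Words in the descriptions also brought in alcohol dehydrogenase 1 (Lsat_1_v5_gn_4_90821), given above, and the co-chaperone BAG2, given below. U-box domain protein 1 (Lsat_1_v5_gn_9_102560) had 84.98, 41.1 and 31.03 CPM in LSL, 12.4, 18.5 and 12.6 CPM in ISL and 1.74, 1.88 and 3.397 CPM in SSL, and the ubiquitin ligase RHB1A (Lsat_1_v5_gn_3_6260) had 102, 71.7 and 54.8 CPM in LSL, 19.5, 71.9 and 20.97 CPM in ISL and 8.44, 5.202 and 5.19 CPM in SSL, with ISL replicate 2 inside the LSL range. Outside the set 83 of 186 listed genes rose and 66 fell in LSL against SSL. These 44.6 and 35.5% were near the 42.0 and 33.4% of the described genes, while 16.2 and 15.3% of all genes tested were called. A chaperone-like gene described as SUPPRESSOR OF MAX2 1 (Lsat_1_v5_gn_7_53320), a repressor of karrikin responses in Arabidopsis, had 518, 466 and 349 CPM in LSL, 65.4, 136 and 61.2 CPM in ISL and 45.1, 37.6 and 37.96 CPM in SSL. The co-chaperone BAG2 (Lsat_1_v5_gn_4_184641) had 201, 208 and 154 CPM in LSL, 35.7, 78.9 and 47.4 CPM in ISL and 23.5, 25.8 and 27.5 CPM in SSL, and a DnaJ protein (Lsat_1_v5_gn_9_108061) had 237, 241 and 190.5 CPM in LSL, 59.7, 155 and 61.5 CPM in ISL and 34.7, 29.8 and 31.3 CPM in SSL. The first 2 of these chaperone genes took their larger step between LSL and ISL and did not pass without ISL replicate 2. An amidohydrolase described as releasing auxin from amino acid conjugates (Lsat_1_v5_gn_5_134160) had 136, 110.1 and 77.1 CPM in LSL, 30.8, 55.3 and 30.4 CPM in ISL and 11.997, 13.99 and 23.8 CPM in SSL, and an aspartyl protease (Lsat_1_v5_gn_2_68440) had 259, 184 and 191 CPM in LSL, 78.1, 133 and 83.9 CPM in ISL and 56.1, 50.3 and 50.6 CPM in SSL.

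Transporter members included ABCC10 (Lsat_1_v5_gn_6_85540), with 1528, 1296 and 967 CPM in LSL, 267, 480.0 and 265 CPM in ISL and 111, 155 and 262 CPM in SSL, next to a second ABCC10 gene (Lsat_1_v5_gn_6_85620) that averaged 168 CPM in LSL, 88.9 CPM in ISL and 29.5 CPM in SSL. A nitrate and peptide family transporter, NRT1/PTR 2.10 (Lsat_1_v5_gn_4_107140), was one of the most abundant members, with 1510.4, 1441 and 1031 CPM in LSL, 427, 1015 and 472 CPM in ISL and 238, 177 and 234 CPM in SSL. An EamA-type transporter (Lsat_1_v5_gn_8_45001) had 272, 202 and 148 CPM in LSL, 39.4, 99.1 and 45.5 CPM in ISL and 28.5, 29.1 and 38.9 CPM in SSL and did not pass without ISL replicate 2. The most abundant described member besides the FAD8 desaturase was the ribosomal protein L10 gene (Lsat_1_v5_gn_8_98880), with 2115, 1692 and 1276 CPM in LSL, 680.0, 1753 and 722 CPM in ISL and 193, 169.9 and 217 CPM in SSL, where ISL replicate 2 lay within the LSL range. The most abundant member of all (Lsat_1_v5_gn_1_56301, no description) averaged 2463 CPM in LSL, 1276 CPM in ISL and 477 CPM in SSL.

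Cell wall and membrane lipid genes completed the listed members. A glucan endo-1,3-beta-glucosidase (Lsat_1_v5_gn_8_15560) had 73.8, 135 and 179.6 CPM in LSL, 35.3, 53.4 and 37.8 CPM in ISL and 18.6, 20.5 and 15.4 CPM in SSL, and endochitinase EP3 (Lsat_1_v5_gn_2_29401), which acts on fungal walls, had 132, 111 and 66.99 CPM in LSL, 41.8, 85.2 and 39.1 CPM in ISL and 26.9, 17.02 and 18.8 CPM in SSL. For the chitinase ISL replicate 2 was above LSL replicate 3. Inositol phosphorylceramide synthase 1 (Lsat_1_v5_gn_8_80701), a sphingolipid enzyme, had 403, 389 and 342 CPM in LSL, 114, 290.5 and 107 CPM in ISL and 55.97, 54.2 and 55.7 CPM in SSL. The copine BONZAI 1 (Lsat_1_v5_gn_4_84480), which restrains defence in Arabidopsis, had 119, 128 and 107 CPM in LSL, 40.9, 102 and 55.05 CPM in ISL and 21.98, 15.8 and 19.3 CPM in SSL. A gene with both pectinesterase and F-box descriptions (Lsat_1_v5_gn_5_102060) had 19.5, 21.5 and 27.3 CPM in LSL, 10.9, 12.04 and 8.396 CPM in ISL and 4.05, 3.39 and 4.26 CPM in SSL, and no 2 genotypes overlapped.

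That members varied together between genotypes followed from the rule, so their likeness within genotypes was described apart. After subtracting genotype means, the median Pearson correlation between pairs of members over the 9 libraries was 0.62, and over the 6 LSL and SSL libraries alone it was 0.20. The pairs share libraries and the shift of ISL replicate 2, and the correlation was not computed over all genes with enough counts. It is a description of these libraries and not a trait shown to be particular to the members. In LSL, replicate 1 was the highest library in 113 members (61.7%, against 33.8% of all genes with enough counts) and replicate 3 the lowest in 101 (55.2%, against 29.5%). In SSL, replicate 3 was the highest in 84 and replicate 1 in 68.

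The number in the identifier, which the v5 annotation uses for the chromosome, ran over 0 to 9 among the members. Number 4 held 30, number 8 held 28 and number 1 held 24, which is 1.25, 1.18 and 1.38% of their genes with enough counts, and the share ran from 0.54% (number 0) to 1.38% over all. Within 10 places of each other in the identifier order lay 8 pairs of neighbouring members, among them the 2 ABCC10 genes, 2 RPW8-type genes, 3 TIR-NBS-LRR genes of number 1, and TIFY 9 near NAC83, both of number 3. Only uniquely mapped reads were counted, so copies of 1 family that are nearly identical may be undercounted.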

How the data were processed

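RNA from leaves of ‘Okeechobee’ (LSL), ‘Manatee’ (ISL) and 60184 (SSL) was sequenced in 9 libraries, 3 per genotype, and samples were grouped by their titles. Reads were trimmed by the authors (Cutadapt) and aligned by STAR against version v5 of the lettuce genome. PCR duplicates were then removed, and the authors deposited raw counts of uniquely mapped reads per gene, obtained with HTSeq, SAMtools and their own scripts and not normalized. Summary lines for reads outside genes, ambiguous and multiply mapped reads (10.0 to 20.4% of counted reads) were left out of gene counts and library sizes.

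CPM used the total gene counts of a library, 24108451 to 32840811. The rule for the members was applied in Python to log2(CPM + 0.5), and tested on simulated data with known steps. The members and lists were chosen with earlier results of these data known. Comparisons of 2 genotypes used edgeR 4.0.16 in R 4.3.3 (TMM, robust quasi-likelihood F test, a filter of 10 counts or more in 3 of the 6 libraries or more, Benjamini-Hochberg adjustment over all tested genes, called at an adjusted p under 0.05), also tested on simulated data. With 3 libraries against 3 the smallest exact two-sided p for a single value is 0.1, so no single-gene exact test was run.

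Descriptions came from the study's supplementary tables, which were held in part, and cover 3733 genes of the count tables. Lists are word patterns on them, 25 for families and 6 for markers. Named members are the 12 described members with the largest smaller step, up to 3 per family list with the largest LSL minus SSL difference, those the study names with an identifier, the 5 with the highest LSL level and the neighbours of the threshold, with 63 members from the first 4 of these rules. Genes outside the set are named from up to 3 per list with the smallest p in LSL against SSL. TIFY 9, TIFY 10A, the OPC-8:0 CoA ligase, the phospholipase, ACA11, CBP60A, the FERONIA genes, RBOHF, the second ABCC10 gene and 1 gene without a description were added after their values were seen. Alternatives were DESeq2 1.42.0, DESeq2 size factors, TMM-scaled library sizes, other pseudocounts, filters and steps, a stricter overlap rule, 1 model of all 9 libraries, a replicate block and leaving out each replicate. Promoters and proteins of members were not analysed here.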

Additional observations from a re-analysis of the deposited data

How the results depend on the processing

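The number of genes passing the rule stayed within 1.5 times of 183 for pseudocounts of 1 (174) and 2 (150), for TMM (175) and DESeq2 (176) library scaling, and for mean counts of at least 10 (211) or 100 (146). Steps of at least 0.6 gave 344 genes, steps of at least 1.0 gave 103, and the demand for no overlap between neighbouring genotypes gave 116. Leaving out 1 library gave 146 to 212 genes, which shared 123 to 177 with the 183, and 72 members passed in every such repeat. The fewest were shared without ISL replicate 2. Genotype medians gave 221 genes, 145 of them members, and ISL replicate 2 alone gave 98, both chosen after seeing the data. The other orders of the genotypes held 226 genes in all, and 120 with no overlap between neighbours.

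In LSL against SSL 6969 genes were called, and 4073 to 6858 with 1 library left out, the lowest counts being 4073 without SSL replicate 2 and 4360 without SSL replicate 3. In ISL against SSL 4176 were called, 2320 with a replicate block and 1232 to 4381 with 1 library left out (1232 to 1481 without an SSL library, 2655 without ISL replicate 3). For LSL against ISL the 1817 calls became 3654 in DESeq2, 3129 in 1 model of all 9 libraries, 596 with a replicate block and 430 to 2152 with 1 library left out (430 to 945 without any library but ISL replicate 2). Of the listed genes outside the set, 1341, 1064 and 426 were called in these comparisons. With 1 library left out they were 1100 to 1278, 420 to 1064 and 156 to 564, and for LSL against ISL 652 in DESeq2 and 202 with a replicate block. Deviations of same-numbered libraries from their genotype means had mixed correlations (-0.38 to 0.36). With so few libraries, and ISL replicate 2 among them, these values cannot show whether the numbers pair the samples. A fit without a library has fewer samples, and any further cause of the lost calls was not tested. Every other alternative stayed within 1.5 times of its count.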
